A study of Homo sapiens with 6 samples.

Results

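Cal27, an established human cell line of tongue squamous carcinoma, was compared in 2 states: cells given a lentivirus that carries CRNN, the gene for cornulin, and untreated wild-type cells. The comparison uses 4 of the 6 libraries of the series, CRNN replicates 1 and 2 and untreated replicates 1 and 2. The other 2 libraries come from cells with a GFP vector and enter only as printed levels. Of 57820 gene identifiers, 15687 had enough counts in these 4 libraries to be tested, and the account covers all of them. Both groups are Cal27 cells grown in DMEM with serum, and all libraries carry batch 1. Per the labels, the transduced cells received 8 µg/ml polybrene with the virus and were harvested at 48 h. No harvest time and no polybrene are given for the untreated cells. The CRNN insert, the transduction, polybrene and the harvest time therefore cannot be told apart in this comparison. The promoter that drives the insert, and whether transduced cells were selected, are not given in the sources used here. The labels call the replicates biological and do not say whether they were separate cultures, so the p-values measure the spread between these libraries only.

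Cornulin belongs to the S100 fused-type family of calcium-binding proteins. It is made in the upper layers of stratified squamous epithelium such as the lining of the mouth and esophagus, and its gene lies in the epidermal differentiation complex of chromosome 1. Its transcript is known to be lost in many squamous carcinomas. Putting the gene back into a carcinoma line asks which other transcripts differ in cells that carry it.

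The untreated libraries lay far apart from each other. Levels are in CPM, counts relative to library sizes that were adjusted by TMM, and differences are in log2 CPM. A pair of values stands for replicates 1 and 2 in that order. Among the 11709 genes whose mean log2 CPM was at least 1, 1600 (13.7%) were over 2-fold apart between the untreated replicates and 54 (0.461%) between the CRNN replicates. Untreated replicate 1 was over 2-fold from the CRNN libraries at 1668 and 1659 genes, and untreated replicate 2 at 150 and 204. On the first principal component, with 80.8% of the variance, untreated replicate 1 lay at 61.6 and the other libraries between -21.7 and -19.2. The libraries held 21735893 to 28041227 counts, and 3 counts were worth 0.107 to 0.138 CPM. All 12 squamous epithelial markers, among them KRT5 and TP63, had counts in each of the 4 libraries. The summed level of 9 fibroblast markers was 4.16 to 5.52 CPM and that of 10 immune markers 6.78 to 11.2 CPM. Of 6 endothelial markers, 5 were in the table and summed to 49.9 CPM in untreated replicate 1 against 8.44 to 14.1 CPM in the other 3 libraries. That sum rested on CDH5, an adhesion molecule of vessel walls, with 1307 and 302 counts in untreated replicates 1 and 2 and 159 and 196 in the CRNN libraries. In untreated replicates 1 and 2 VWF had 80 and 24 counts, CLDN5 11 and 15, TEK 0 and 1 and KDR 1 and 0. Whether any such cells were present, and their part in the results below, was not tested.

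CRNN itself was high in the transduced cells and low in the untreated ones. Its gene (ENSG00000143536.7), at GRCh38 chromosome 1, 152409243 to 152414263, minus strand, had 21256 and 23062 counts in CRNN replicates 1 and 2, and 92 and 52 in untreated replicates 1 and 2. In CPM these are 957 and 1013 against 3.47 and 2.06. Both CRNN libraries stood far above both untreated ones, and the groups did not overlap. CRNN rose with a log2 fold change of 8.47 (SE 0.38, 2 libraries per group, adjusted p = 0.0355, edgeR's quasi-likelihood test with Benjamini-Hochberg adjustment). Against untreated replicate 1 the difference was 8.12, and against untreated replicate 2 it was 8.84. The call was lost when genes with low counts were kept in the test (8.46, adjusted p = 0.339).

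No other gene passed the test across all 15687. CRNN was the 1 gene called higher, which is 0.00637% of the tested genes, and 0 (0%) were called lower. The next smallest adjusted p was 0.827. At an unadjusted p under 0.05 edgeR gave 296 genes higher (1.89%) and 352 lower (2.24%), 648 (4.13%) in all. DESeq2 gave 241 higher and 522 lower at that unadjusted level, 763 in all, and limma-voom 344 higher and 235 lower, 579 in all, so the larger direction differed between the tools. After adjustment DESeq2 called 11 genes higher and 5 lower, and limma-voom called CRNN alone. The genes DESeq2 called higher beside CRNN were IFI6, IFI27, PI3, MMP1, MMP10, MMP13, KRT1, DEPP1, TLL2 and the histone gene H2BC26. Those it called lower were PADI3, TGFB2-AS1, TNFSF18, CHML and ENSG00000239776.2, an identifier without a name in the tables used here. The spread that edgeR estimated over the 4 libraries, as the biological coefficient of variation, was 0.279. With either untreated library left out only the CRNN pair gives the spread, and it was 0.111 without untreated replicate 1 and 0.112 without untreated replicate 2.

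Because the test rested on untreated libraries that differ, each gene was also described against each of them alone. A gene was counted as held when both CRNN libraries lay at least 2-fold on the same side of both untreated libraries. This is a description with no test. By this measure 67 genes (0.427%) were held higher and 23 (0.147%) were held lower, 90 (0.574%) in all. Lying on one side without a fold limit was common, with 2984 genes (19%) above both untreated libraries and 2911 (18.6%) below both, 37.6% together. A larger group differed from untreated replicate 1 only. There both CRNN libraries lay at least 2-fold from untreated replicate 1, while their mean lay less than 1.5-fold on that side of untreated replicate 2, or on its other side. These were 947 genes (6.04%) above untreated replicate 1 and 798 (5.09%) below it. The mirrored count for untreated replicate 2 was 123 genes above (0.784%) and 13 below (0.0829%). At a mean log2 CPM of 1 or more there were 569 genes above (4.86%) and 656 below (5.6%) untreated replicate 1 only, and 49 above (0.418%) and 2 below (0.0171%) untreated replicate 2 only. All these rules ask both CRNN libraries to pass the limit, so leaving 1 of them out makes the rules easier to meet. A rise in the counts is then partly built in. Without CRNN replicate 1 the held counts were 164 higher and 286 lower, and without CRNN replicate 2 they were 273 and 92.

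**Figure D1:**
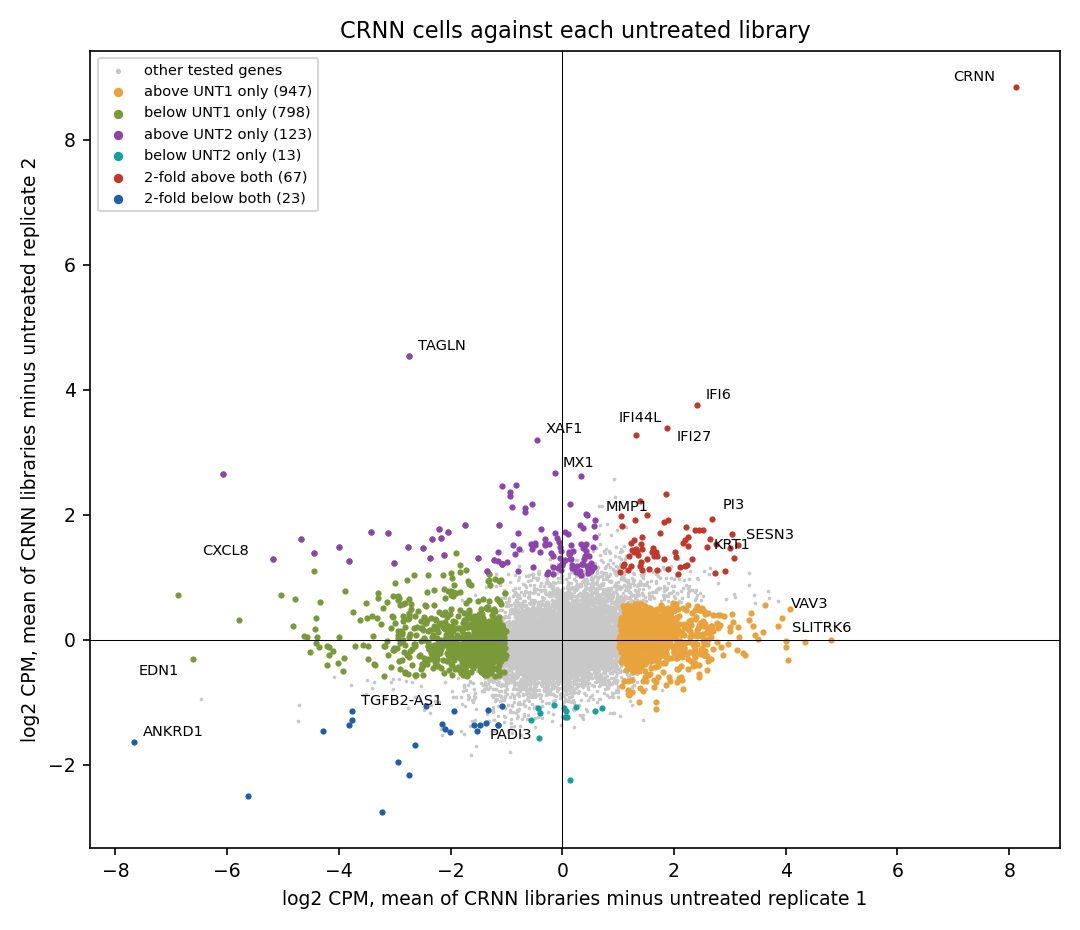
Each point is 1 of 15687 tested genes, with the mean log2 CPM of the CRNN libraries minus untreated replicate 1 on the horizontal axis and minus untreated replicate 2 on the vertical axis. The wide spread along the horizontal axis holds the 947 and 798 genes that differ from untreated replicate 1 only, and the 67 genes held higher sit in the upper right with CRNN apart from them. Genes that meet the rule for both untreated libraries in opposite directions are drawn in the colour for untreated replicate 2.

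Held higher beside CRNN were 3 of 48 tested interferon-stimulated genes, IFI6, IFI27 and IFI44L, beside 0.427% of all tested genes. Type I interferons act through a factor that holds STAT2 and IRF9 and binds a response element of paired GAAA blocks in the promoters of these genes. IFI6, a small membrane protein that restrains cell death (ENSG00000126709.10; chromosome 1, 27666064 to 27672212, minus strand), had 9821 and 11537 counts in the CRNN libraries and 2366 and 881 in untreated replicates 1 and 2. In CPM these are 442 and 507 against 89.1 and 34.9. Its lowest CRNN library lay well above the higher untreated one, and the fitted log2 fold change was 2.93 (SE 0.48). IFI27, a mitochondrial interferon-induced protein (ENSG00000165949.8; chromosome 14, 94104836 to 94116695, plus strand), had 326 and 398 CPM with CRNN against 98.6 and 34.4 without, a log2 fold change of 2.44 (SE 0.52). IFI44L, a feedback regulator of the interferon response (ENSG00000137959.11; chromosome 1, 78619902 to 78646145, plus strand), had 34.4 and 34.8 CPM against 13.9 and 3.49, a log2 fold change of 1.99 (SE 0.63). In each of the 3 genes untreated replicate 1 stood between the CRNN libraries and untreated replicate 2. The edgeR adjusted p was 0.827 for each.

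The promoters of these 3 genes hold the paired GAAA letters, searched as GAAANNGAAA on both strands of the 250 bases before the start. The windows are shown because the 3 genes lie together among the held genes. They are from RefSeq (GRCh38.p14), written 5′ to 3′ along the gene's strand, with the matched letters in capitals. The IFI6 window is chr1:27672267-27672357, minus strand and holds 3 matches. The IFI27 window is chr14:94110606-94110666, plus strand, before the first of its RefSeq starts, and holds 2 matches, one on each strand. The IFI44L window is chr1:78620278-78620388, plus strand and holds 2 matches.
IFI6: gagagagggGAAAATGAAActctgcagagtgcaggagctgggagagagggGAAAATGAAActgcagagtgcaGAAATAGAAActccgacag
IFI27: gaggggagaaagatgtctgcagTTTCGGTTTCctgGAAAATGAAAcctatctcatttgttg
IFI44L: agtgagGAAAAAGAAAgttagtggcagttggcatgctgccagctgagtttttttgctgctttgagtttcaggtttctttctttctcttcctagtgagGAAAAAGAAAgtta
Among 10841 tested genes with a promoter sequence, 239 (2.2%) held this motif. It was present in 4 of the 42 held higher genes with a sequence (9.52%), which were IFI6, IFI27, IFI44L and PRKCQ, a protein kinase C of T cell receptor signalling. The promoters of held higher genes were also lower in GC, with a median of 57.8% beside 65.2% over all. The shares were not matched for GC. A match is a description of letters and says nothing of binding.

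Over the whole interferon-stimulated list the median difference of the CRNN cells was smaller against untreated replicate 1 than against untreated replicate 2. Of the 48 tested members, 21 lay above both untreated libraries and 1 below both, beside 19% and 18.6% of all tested genes. None passed the edgeR test over all genes. At an unadjusted edgeR p under 0.05, 10 were higher, beside 1.89% of all tested genes. The list's median difference was 0.01 against untreated replicate 1 and 0.99 against untreated replicate 2, beside 0.01 and 0.00 over all tested genes. Members went both ways against untreated replicate 1, with 24 of 48 above 0 and a range from -1.32 to 2.41. Against untreated replicate 2, 47 of 48 were above 0. STAT2, a subunit of the interferon-activated transcription factor, had 220.1 and 213 CPM with CRNN against 122 and 138 without, a log2 fold change of 0.74 (SE 0.18). SP110, a nuclear body protein, had 42.9 and 49 CPM against 31.3 and 25.1. IFITM1, a membrane protein that restricts virus entry, had 111 and 113 CPM against 64.2 and 30.9. All 3 genes had both CRNN libraries above both untreated libraries. OAS1 and OAS3, sensors of double-stranded RNA, had 66.1 and 82.6 CPM against 46.6 and 16.7, and 284 and 282 against 178 and 79.1. In OAS1 and OAS3 untreated replicate 1 was again the nearer of the untreated libraries. The list was written with earlier results of these data known, so its direction is not independent evidence.

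Collagenases and a stromelysin formed the second group among the held genes. MMP1, MMP13 and MMP10 are secreted metalloproteinases that cut collagen and other matrix proteins, and they lie in a cluster of such genes on chromosome 11. MMP1 (ENSG00000196611.4; chromosome 11, 102789401 to 102798160, minus strand) had 1557 and 2160 counts in the CRNN libraries and 610 and 555 in the untreated ones. As CPM they were 70.1 and 94.9 against 23 and 22, a log2 fold change of 1.87 (SE 0.22). The untreated libraries lay close together here, and CRNN replicate 2 was the highest of the 4. MMP13 (chromosome 11, 102942995 to 102955732, minus strand) had 35 and 59.4 CPM against 12.2 and 12, a log2 fold change of 1.96 (SE 0.30). MMP10 (chromosome 11, 102770502 to 102780628, minus strand) had 62 and 94.8 CPM against 29.3 and 16.3, a log2 fold change of 1.78 (SE 0.37). CRNN replicate 2 stood above CRNN replicate 1 in all 3 genes, and no library of one group overlapped the other group. MMP7, at the edge of the cluster, had 46 and 90 counts in the CRNN libraries and 60 and 10 in the untreated ones, so its groups overlapped. MMP3, MMP8, MMP20 and MMP27 had at most 4 counts in any of the 4 libraries. The cluster was looked at after the values of MMP1, MMP10 and MMP13 had been seen. Of 21 tested proteases and inhibitors, 3 were held higher and 7 lay below untreated replicate 1 only, beside 0.427% and 5.09% of all tested genes.

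The MMP10 promoter holds an AP-1 site, searched as TGANTCA. AP-1, the dimer of Jun and Fos proteins, is known to act on collagenase promoters. The window, chr11:102780648-102780718, minus strand, is from RefSeq (GRCh38.p14) with the match in capitals.
MMP10: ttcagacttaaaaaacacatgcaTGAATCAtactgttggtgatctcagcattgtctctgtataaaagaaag
The AP-1 letters were present in 458 of the 10841 promoters (4.22%) and in 7 of the 42 held higher genes with a sequence (16.7%). Those 7 were CRNN, MMP10, MANCR, MRAP2, NHLH2, NREP and SOX2-OT. Only 42 of the 67 held higher genes had a sequence. The absence of MMP1 and MMP13 from the 7 therefore does not show that they lack the letters. CRNN is the transduced gene, so its place among the 7 is set by the design. The lower GC of the held higher promoters was not allowed for here either. The letters were not particular to held higher genes. They were present in 2 of 11 held lower genes (18.2%) and in 7 of 63 genes above untreated replicate 2 only (11.1%).

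Held genes known from squamous epithelium went both ways, with PI3 and KRT1 higher and PADI3 and KRT9 lower. PI3 encodes elafin, an inhibitor of neutrophil elastase that squamous cells secrete (ENSG00000124102.4; chromosome 20, 45174902 to 45176544, plus strand). It had 231 and 213 counts in the CRNN libraries and 39 and 64 in the untreated ones. As CPM they were 10.4 and 9.36 against 1.47 and 2.54, a log2 fold change of 2.30 (SE 0.35). KRT1, the keratin of suprabasal epidermal cells (chromosome 12, 52674736 to 52680407, minus strand), had 6.98 and 11.7 CPM against 1.51 and 2.62, a log2 fold change of 2.18 (SE 0.43). The lower CRNN library was over 2-fold above the higher untreated library in both genes. PADI3, an enzyme that turns arginine into citrulline in hair and epidermal proteins (ENSG00000142619.4; chromosome 1, 17249098 to 17284233, plus strand), had 159 and 219 counts in the CRNN libraries and 638 and 578 in the untreated ones. As CPM they were 7.16 and 9.62 against 24 and 22.9, a log2 fold change of -1.48 (SE 0.24). PADI1, a deiminase gene just before it on the chromosome (chromosome 1, 17205128 to 17246007, plus strand), had 1.89 and 1.71 CPM against 3.81 and 4.28 and missed the 2-fold limit by little, with its smallest difference between libraries at -0.98. KRT9, a keratin of the epidermis of palm and sole, had few counts, 5 and 6 in the CRNN libraries and 17 and 19 in the untreated ones. KRT9 was named after its values were seen, and the keratin pseudogene KRT87P and the antisense RNA KRT7-AS were also held lower. POF1B, an actin-binding protein of epithelial junctions, had 3.65 and 3.78 CPM against 1.24 and 0.872. CALML3, a calmodulin-like protein of differentiating epithelium, had 17.9 and 21 CPM against 10.3 and 12.1, above both untreated libraries by less than 2-fold. Over the 30 tested genes of the cornified envelope 7 lay above both untreated libraries and 3 below both, shares of 23.3% and 10% beside 19% and 18.6% of all tested genes. Their median difference was 0.29 against untreated replicate 1 and 0.02 against untreated replicate 2.

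The remaining held higher genes at a mean log2 CPM of 1 or more came from several functions. SESN3, a sestrin that restrains growth signalling under stress, had 8.55 and 7.47 CPM against 0.829 and 2.74. TLL2, a tolloid-like protease that processes secreted precursors, had 10.7 and 11.9 CPM against 1.81 and 3.97. In SESN3 and TLL2 untreated replicate 1 was the lowest library. DEPP1, a FOXO-induced regulator of autophagy, had 14.6 and 14.5 CPM against 5.73 and 5.47, a log2 fold change of 1.38 (SE 0.21). TMEM229B, a membrane protein, had 5.54 and 5.54 CPM against 2.11 and 2.10. ENTPD3, a cell-surface enzyme that splits nucleotides, had 6.66 and 6.37 CPM against 2.71 and 2.18. In DEPP1, TMEM229B and ENTPD3 the replicates lay close together within each group. ACKR3, a scavenging chemokine receptor, had 28 and 29.9 CPM against 4.29 and 13.7, close to the limit in untreated replicate 2. Some held genes had few counts. VIM, the mesenchymal filament protein vimentin, had 35 and 47 counts in the CRNN libraries and 7 and 12 in the untreated ones. SP5, a transcription factor induced by Wnt signals, had 37 and 44 counts against 14 and 15.

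Held lower genes were fewer than held higher genes. Only 5 of the 23 reached a mean log2 CPM of 1, which is 0.0427% of 11709 such genes, against 23 of the 67 held higher (0.196%). Beside PADI3 these were MIR1915HG, TGFB2-AS1, SPNS2 and ENSG00000239776.2. MIR1915HG, a long RNA that hosts a microRNA, had 2.52 and 2.42 CPM with CRNN against 6.52 and 6.30 without. SPNS2, the exporter of sphingosine-1-phosphate, had 1.89 and 1.89 CPM against 4.11 and 4.01. In both genes the untreated replicates lay close together and the CRNN libraries below them. TGFB2-AS1, antisense to TGFB2, had 2.48 and 2.59 CPM against 35.3 and 5.71, and TGFB2, a transforming growth factor, had 37.3 and 35.3 CPM against 411 and 56.6. Both members of this pair were highest in untreated replicate 1, and reads of the pair cannot be told apart unless the counting used the strand, which the sources used here do not state. ENSG00000239776.2, named here after its values were seen, had 125 and 85 counts in the CRNN libraries and 1154 and 789 in the untreated ones, a log2 fold change of -3.00 (SE 0.32). Its CRNN libraries lay over 5-fold below the lower untreated library. ANKRD1, a muscle and wound-response protein, had 4 and 5 counts in the CRNN libraries and 1509 and 20 in the untreated ones. SPRY4, a brake on receptor tyrosine kinase signalling, had 16 and 10 counts against 239 and 40. For ANKRD1 and SPRY4 the size of the difference came mostly from untreated replicate 1.

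**Figure D2:**
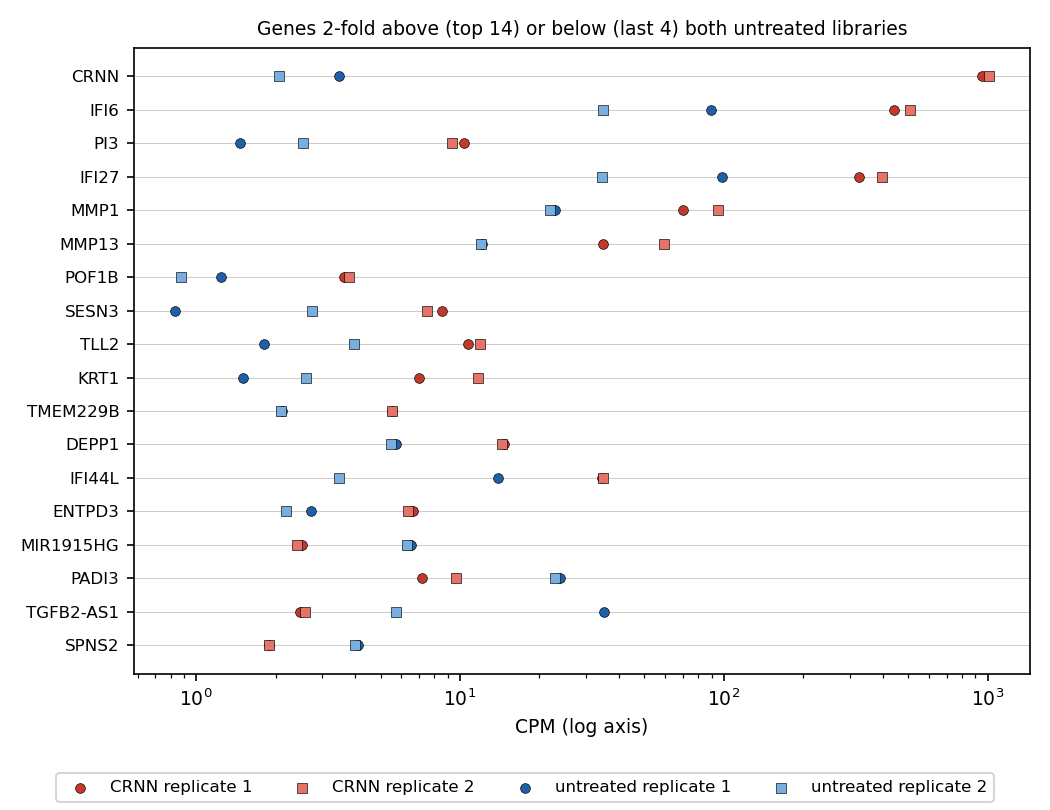
Levels in CPM (log axis) of the named genes held 2-fold above both untreated libraries (14 rows from CRNN to ENTPD3) or below both (4 rows from MIR1915HG to SPNS2), with 1 point per library. The red CRNN points and the blue untreated points do not overlap in any row, and in IFI6, IFI27, IFI44L, SESN3 and TGFB2-AS1 the untreated libraries lie apart from each other.

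Held genes were mostly at low levels, where counting error is largest. The median over the held higher genes of the mean log2 CPM was -0.31 and over the held lower genes -0.24, beside 3.58 over all tested genes. Of the held lower genes 8 (34.8%) were long noncoding RNAs, and of the held higher genes 8 (11.9%), beside 10.2% of all tested genes. With a filter of 1 CPM in 2 libraries the held counts were 38 higher and 12 lower. NEURL1B, a ubiquitin ligase of Notch signalling, was the held higher gene closest to the limit, with 18.7 and 17.2 CPM against 4.22 and 8.57 and a smallest difference of 1.00. Just outside lay the histone gene H2AC25 at 0.97 and NECTIN3, an adhesion molecule, at 0.97. On the lower side PADI1 lay outside at -0.98 and KRT7, a keratin of simple epithelium, at -0.98.

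The GFP libraries show where some of these genes lay in cells that received another virus. Levels in this paragraph are CPM scaled over all 6 libraries unless stated. Comparisons of the CRNN cells with either control share the CRNN libraries, so the values are set side by side with no test. IFI6 had 15.6 and 19.95 CPM in GFP replicates 1 and 2, below the untreated libraries at 90.4 and 35.3 and the CRNN libraries at 445 and 514. IFI27 had 11.6 and 8.54 CPM in the GFP libraries, again below both other groups. PADI3 had 7.11 and 9.66 CPM in the GFP libraries, near the CRNN libraries at 7.21 and 9.76 and below the untreated libraries at 24.4 and 23.1. SP5 had 1.71 and 1.52 CPM in the GFP libraries against 1.68 and 1.96 in the CRNN and 0.535 and 0.601 in the untreated libraries. For both genes the GFP values lay nearer the CRNN than the untreated libraries. KRT1 and PI3 differed between the GFP replicates, at 4.62 and 9.90 CPM and 50.6 and 4.79 CPM. In both genes both GFP libraries lay above both untreated libraries. Scaled over the 4 libraries, the untreated levels were 1.51 and 2.62 CPM for KRT1 and 1.47 and 2.54 CPM for PI3. The CRNN levels on that scale were 6.98 and 11.7 CPM for KRT1 and 10.4 and 9.36 CPM for PI3. MMP1 had 3.48 and 40.6 CPM and MMP10 0.623 and 41.9 CPM in the GFP libraries, so GFP replicate 1 lay below both untreated libraries and GFP replicate 2 above them. TMEM229B had 1.40 and 1.44 CPM and SESN3 1.40 and 2.71 CPM in the GFP libraries, below both CRNN libraries. DEPP1 had 8.21 and 9.02 CPM, between the untreated libraries at 5.81 and 5.52 and the CRNN libraries at 14.7 and 14.7.

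Fitted against each untreated library alone, the CRNN cells gave very different counts. In these fits only the CRNN pair gives the spread, and the lone untreated library is assumed to vary like it. Against untreated replicate 1 edgeR called 1878 of 16552 genes higher (11.3%) and 2304 lower (13.9%). Against untreated replicate 2 it called 181 of 16586 higher (1.09%) and 98 lower (0.591%). Called the same way both times were 67 genes higher (0.427%) and 43 lower (0.274%), and called in opposite ways were 7 genes higher against untreated replicate 1 (0.0446%) and 35 lower against it (0.223%). Of the 67 held higher genes 24 were among the 67 called higher both times, 35.8% of each list. Of the 23 held lower genes 4 were among the 43 called lower both times, 17.4% of the first list and 9.30% of the second. Among the interferon-stimulated genes 8 of 48 were called higher both times, which were IFI6, IFI27, IFI44L, IFITM1, OAS1, OAS2, OAS3 and SP110. Of the proteases MMP1, MMP10, MMP13 and the inhibitor SERPINE2 were called higher both times. AMOTL2, CCN1 and TGFB2 of the YAP target list were called lower both times. These counts do not stand on replication of the untreated cells.

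The gene furthest below untreated replicate 1 only, among those the naming rule took, was EDN1. EDN1, the vasoconstrictor peptide endothelin (ENSG00000078401.6; chromosome 6, 12290361 to 12297194, plus strand), had 10141 and 120 counts in untreated replicates 1 and 2 and 76 and 98 in the CRNN libraries. As CPM they were 382 and 4.76 against 3.42 and 4.31. In EDN1 untreated replicate 1 stood alone and the other 3 libraries lay together. The fitted log2 fold change of -5.64 (SE 1.92) rests on that library, and with untreated replicate 1 left out EDN1 was at -0.30. LIF, a cytokine of the interleukin 6 family, had 357 and 18.8 CPM untreated against 17.9 and 16.8 with CRNN. IFFO2, an intermediate filament relative, had 837 and 32.1 CPM and 34.8 and 32.6. PLAUR, the urokinase receptor, had 269 and 9.79 CPM and 11.9 and 13.2. The same 3 to 1 split was seen in LIF, IFFO2 and PLAUR. In the GFP libraries EDN1 had 7.11 and 2.71 CPM and TNFAIP3 15 and 9.02 CPM on the 6-library scale, far below untreated replicate 1.

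Several lists of signalling targets followed untreated replicate 1. Of 23 tested genes of NF-kB and inflammation, 15 lay below untreated replicate 1 only and 4 lay above untreated replicate 2 only, beside 5.09% and 0.784% of all tested genes. Their median difference was -1.68 against untreated replicate 1 and 0.27 against untreated replicate 2. TNFAIP3, the deubiquitinase that shuts off NF-kB, had 287 and 5.27 CPM untreated against 9.23 and 8.17 with CRNN. CXCL8, a chemokine that draws neutrophils, had 53 and 0.515 CPM and 1.31 and 1.45. For both genes the CRNN libraries lay between the untreated ones, and in CXCL8 both were over 2-fold above untreated replicate 2. Set beside the same 5.09%, of 23 tested immediate early genes 10 lay below untreated replicate 1 only, with median differences of -1.18 and 0.18. JUN had 140.0 and 5.67 CPM untreated against 7.56 and 5.45 with CRNN, and FOSL1 had 628 and 37.4 CPM and 38.2 and 31.2. Of 12 tested contractile and actin genes 10 lay below untreated replicate 1 only, with median differences of -2.0 and 0.21. VCL, the focal adhesion protein vinculin, had 1329 and 230.3 CPM untreated against 206 and 224 with CRNN. Of 24 cholesterol and lipid genes 7 lay below untreated replicate 1 only, with median differences of -0.63 and 0.03, and INSIG1, a sterol sensor partner, had 456 and 98.3 CPM against 88.4 and 98.1.

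The promoters of TNFAIP3 and CXCL8 are shown because they hold letters of the known motifs of NF-kB and AP-1. Binding by these factors, and their part in these lists, was not tested. The TNFAIP3 window is chr6:137867169-137867229, plus strand, with 2 kappaB matches in capitals. The CXCL8 window is chr4:73740419-73740509, plus strand, with 1 AP-1 match (TGANTCA) in capitals. Both are from RefSeq (GRCh38.p14).
TNFAIP3: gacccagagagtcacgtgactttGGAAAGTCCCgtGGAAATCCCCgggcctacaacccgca
CXCL8: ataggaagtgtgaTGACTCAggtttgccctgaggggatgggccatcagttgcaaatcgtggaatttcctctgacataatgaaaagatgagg
The kappaB motif was searched as GGGRNWYYCC on both strands, with R for A or G, W for A or T and Y for C or T. It was present in 5.9% of all 10841 promoters. It was in 50 of 585 genes below untreated replicate 1 only (8.55%) and in 37 of 641 genes above it only (5.77%). AP-1 letters were present in 43 of those 585 (7.35%) and in 40 of those 641 (6.24%), beside 4.22% of all. The serum response motif CArG was present in 18 of the 585 (3.08%) and in 4 of the 641 (0.624%), beside 0.978% of all. Among genes above untreated replicate 2 only, kappaB was in 9 of 63 (14.3%) and CArG in 3 of 63 (4.76%). Among held higher genes kappaB was in 4 of 42 (9.52%) and CArG in 0 of 42. Both were in 0 of 11 held lower genes. The transcripts below untreated replicate 1 only had a median length of 3469 bases, beside 2845.5 over all tested genes.

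YAP and TEAD targets and the feedback genes of MAPK signalling also lay below untreated replicate 2, by less. YAP is a coactivator that moves to the nucleus in spread or growing cells and acts through TEAD factors. Of 19 tested targets 14 lay below both untreated libraries and 1 above both, beside 18.6% and 19% of all genes. Of these 19 genes 10 were lower at an unadjusted edgeR p under 0.05, beside 2.24% of all tested genes. None passed the test over all genes. Their median difference was -1.62 against untreated replicate 1 and -0.38 against untreated replicate 2. CCN1, a matricellular protein, had 368 and 28.7 CPM untreated against 15.6 and 12.4 with CRNN, a log2 fold change of -3.82 (SE 1.17). THBS1, the matrix protein thrombospondin, had 9402 and 1504 CPM and 972 and 700.1. AMOTL2, an angiomotin that restrains YAP, had 388 and 197 CPM and 133 and 113. In all 3 genes both CRNN libraries were the lowest and untreated replicate 1 the highest. The GFP libraries had 114 and 46.8 CPM of CCN1 on the 6-library scale, above untreated replicate 2. CCN2, another matricellular protein and a known TEAD target, had 3010 and 60 counts in the untreated libraries and 28 and 26 in the CRNN libraries.

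The CCN2 promoter is shown because its TEAD letters, searched as GGAATG on both strands, occur 3 times within a short stretch. The window is chr6:131951452-131951552, minus strand, from RefSeq (GRCh38.p14), with the matches in capitals.
CCN2: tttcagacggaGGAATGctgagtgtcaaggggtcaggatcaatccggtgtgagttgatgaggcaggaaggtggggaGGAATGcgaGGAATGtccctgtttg
These letters were present in 9.43% of all promoters, in 57 of 585 genes below untreated replicate 1 only (9.74%) and in 54 of 641 above it only (8.42%), so they were about as frequent in either group as in all.

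Of 18 tested EGFR ligands and MAPK feedback genes 11 lay below both untreated libraries, and 11 lay below untreated replicate 1 only, beside 18.6% and 5.09% of all tested genes. Their median difference was -2.52 against untreated replicate 1 and -0.21 against untreated replicate 2. HBEGF, a ligand of the EGF receptor, had 63.4 and 2.50 CPM untreated against 2.21 and 3.03 with CRNN, so it lay at the level of untreated replicate 2. DUSP5, a phosphatase that switches off ERK, had 342 and 31.8 CPM and 23.3 and 21.7, below untreated replicate 2 by less than 2-fold.

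Genes above untreated replicate 1 only included most of the mitosis list. Of 34 tested genes of mitosis 25 were above untreated replicate 1 only, 11 lay above both untreated libraries and 0 below both, beside 6.04%, 19% and 18.6% of all tested genes. Their median difference was 1.49 against untreated replicate 1 and -0.01 against untreated replicate 2, and all 34 were above 0 in the first and 16 in the second. KIF20A, a kinesin of cell division, had 35.1 and 209.9 CPM untreated against 242 and 255 with CRNN. PLK1, a kinase that drives mitosis, had 34.7 and 105 CPM and 130.2 and 139. UBE2C, the ubiquitin conjugating enzyme of the anaphase complex, had 101 and 157 CPM and 217 and 221. Untreated replicate 1 was the lowest library in all 3, and the CRNN libraries exceeded untreated replicate 2 by less than 1.5-fold. CENPE and ASPM, a centromere kinesin and a spindle protein, went the other way against untreated replicate 2, at 8.06 and 52.1 CPM untreated against 33.1 and 20.5 with CRNN, and 21.1 and 162 CPM and 111 and 80.4.

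SLITRK6 and VAV3 lay furthest above untreated replicate 1 only among the genes the naming rule took. SLITRK6, a transmembrane protein of neurons and epithelia, had 6 and 160 counts in untreated replicates 1 and 2 and 129 and 150 in the CRNN libraries. VAV3, a signalling protein of the cytoskeleton, had 2.26 and 28.2 CPM untreated against 33.6 and 38.2 with CRNN. SOX2, a transcription factor of squamous progenitors, had 1.02 and 9.16 CPM and 11.4 and 16.1. RIPK4, a kinase needed for keratinocyte differentiation, had 9.83 and 61 CPM and 76.8 and 86.2. In these genes the CRNN libraries and untreated replicate 2 lay within 2-fold of each other. The split of the genes that differ from untreated replicate 1 only moved with the scaling. With TMM 54.3% of them lay above it. With upper-quartile factors 67.8% did (1261 above, 600 below), and with library totals 62.7%. Upper-quartile scaling shifted the median difference of all genes from untreated replicate 1 from 0.01 to 0.17. Without CRNN replicate 2 the count above untreated replicate 1 only was 1437.

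**Figure D3:**
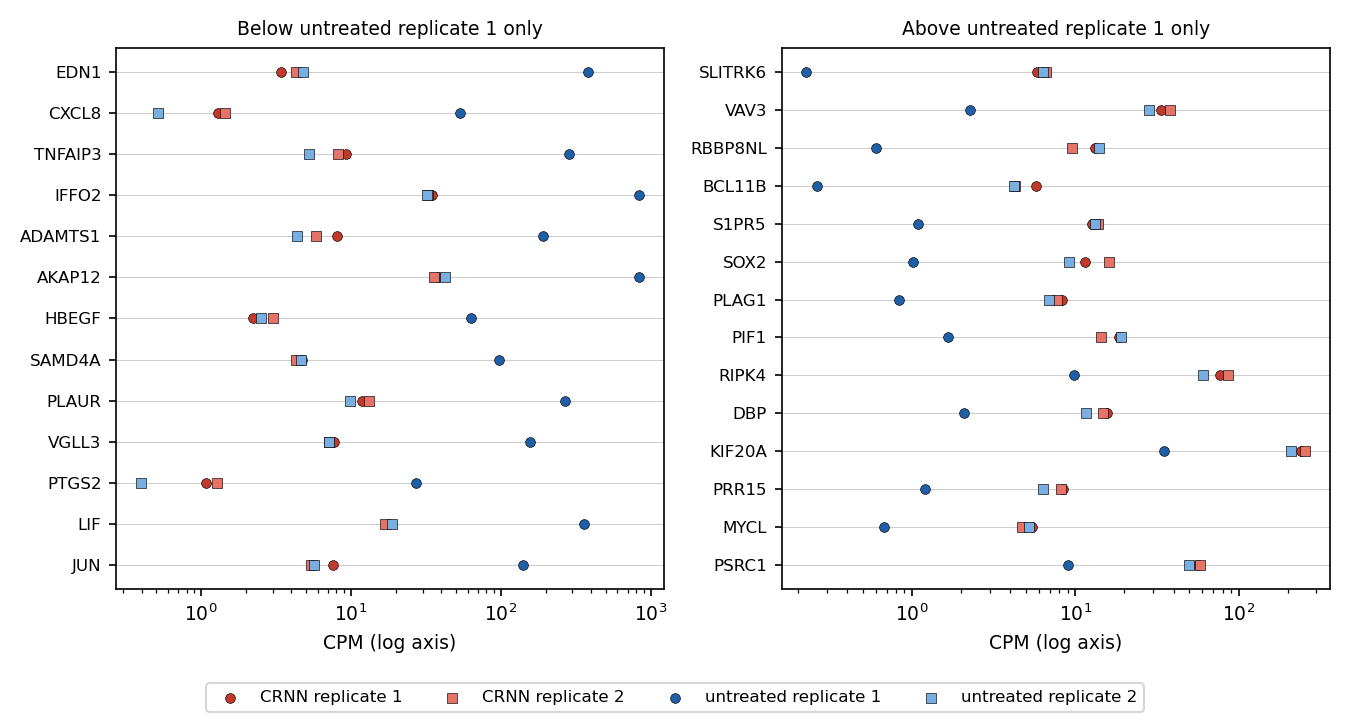
Levels in CPM (log axis) of 13 named genes far below (left) and 14 far above (right) untreated replicate 1 only, with 1 point per library. In every row untreated replicate 1 lies apart from the other 3 libraries, and in CXCL8 and PTGS2 the CRNN libraries also lie over 2-fold above untreated replicate 2.

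Among the genes that differ from untreated replicate 2 only were interferon-stimulated genes. Of the 48 tested, 17 lay above untreated replicate 2 only and 0 below it only, beside 0.784% and 0.0829% of all tested genes. They are 17 of the 123 genes above untreated replicate 2 only. MX1, a GTPase that blocks virus replication, had 185 and 26.5 CPM in untreated replicates 1 and 2 and 164 and 174 in the CRNN libraries. XAF1, an interferon-induced cofactor of cell death, had 32.5 and 2.50 CPM and 20.9 and 26.8. In MX1 and XAF1 untreated replicate 1 was the highest library and untreated replicate 2 the lowest. In the GFP libraries MX1 had 15.7 and 29.2 CPM and XAF1 1.35 and 3.11 CPM on the 6-library scale, near untreated replicate 2. MX2, HSH2D and LAMP3 were named by the same rule and had the same order of libraries. Without CRNN replicate 1 the count above untreated replicate 2 only was 262, and without CRNN replicate 2 it was 280. The promoter letters GAAANNGAAA were present in 8 of 63 genes above untreated replicate 2 only with a sequence (12.7%). The median GC of these promoters was 57.6%, beside 65.2% over all, and the share was not matched for it. Below untreated replicate 2 only were 2 genes at a mean log2 CPM of 1 or more, VGLL2 at 3.09 and 7.61 CPM in the untreated and 3.56 and 2.86 in the CRNN libraries, and SCEL, a cornified envelope precursor, at 3.13 and 6.86 and 3.33 and 3.03. Below untreated replicate 2 only, the count of 13 became 250 without CRNN replicate 1 and 102 without CRNN replicate 2.

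For 25 genes the 2 untreated libraries gave opposite answers, with the CRNN libraries at least 2-fold below untreated replicate 1 and at least 2-fold above untreated replicate 2. TAGLN, an actin-binding protein of smooth muscle, had 3264 and 18 counts in untreated replicates 1 and 2 and 446 and 383 in the CRNN libraries. As CPM they were 123 and 0.714 and 20.1 and 16.8. FN1, the matrix protein fibronectin, had 138 and 24.1 CPM untreated against 66 and 52.3 with CRNN. RELB, an NF-kB subunit, had 62.6 and 3.21 CPM and 7.38 and 7.95. CREB5, a transcription factor, had 1374 and 1 counts and 17 and 14. In each of these 4 genes both CRNN libraries lay between the untreated ones. CXCL8, PTGS2, SAA1, IL32 and ISG20 were among the others.

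**Figure D4:**
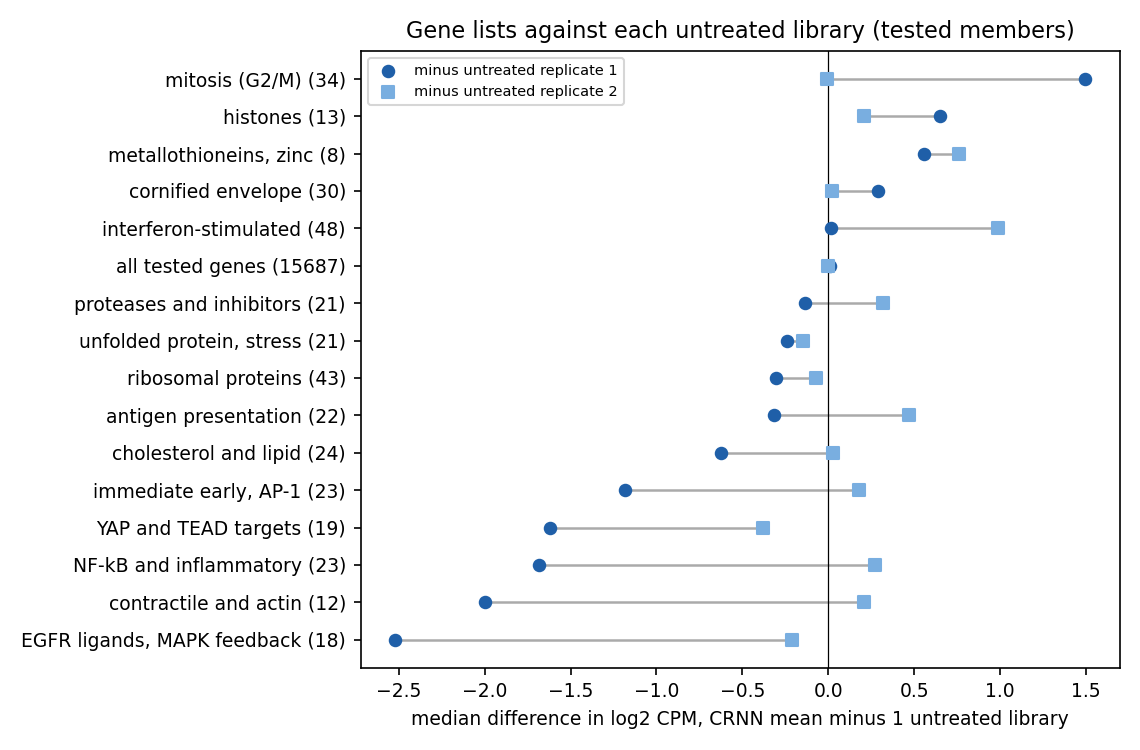
Median difference in log2 CPM over the tested members of each list (number in brackets), with the mean of the CRNN libraries minus untreated replicate 1 as circles and minus untreated replicate 2 as squares. The lists from EGFR ligands (-2.52) to immediate early genes (-1.18) and mitosis (1.49) lie far from 0 against untreated replicate 1 and nearer 0 against untreated replicate 2, and interferon-stimulated genes do the reverse (0.01 and 0.99).

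Smaller differences against both untreated libraries were seen in a few other genes. MT2A, a metallothionein that binds zinc and copper, had 476 and 486 CPM with CRNN against 209 and 284 without, and MT1X had 36.1 and 39.3 CPM against 22.7 and 22.1. Of all tested genes 19% lay above both untreated libraries and 18.6% below both, and the counts of the lists that follow stand beside these shares. Of 8 tested genes of zinc handling 6 lay above both untreated libraries, with a median log2 fold change of 0.71, or 0.40 without untreated replicate 2. The log2 fold changes of the 8 ranged from -2.29 to 1.06. Of the 8, 1 lay below untreated replicate 1 only, beside 5.09% of all tested genes. Of 13 tested histone genes 8 lay above both and 0 below both, with median differences of 0.65 and 0.21. H2BC11, a histone H2B gene, had 659 and 579.7 CPM against 352 and 363. The CRNN and untreated libraries did not overlap in MT2A, MT1X or H2BC11, and none of the 3 passed the test over all genes. ASNS, the enzyme of asparagine synthesis and a target of the amino acid response, had 34.1 and 37.9 CPM with CRNN against 68.9 and 68 without, a log2 fold change of -0.93 (SE 0.17). The untreated libraries lay close together, and the GFP libraries had 38.6 and 37 CPM on the 6-library scale, near the CRNN cells. Of 21 tested genes of the unfolded protein and integrated stress responses 9 lay below both untreated libraries and 1 above both, with median differences of -0.24 and -0.15. SLC7A11, a cystine transporter, had 8.91 and 7.69 CPM against 19.1 and 14.4. Of 43 ribosomal protein genes 14 lay below both and 0 above both, with median differences of -0.31 and -0.07.

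Genes of squamous identity did not move together. TP63, the master factor of basal squamous cells, had 377 and 461 CPM with CRNN against 192 and 292 without, above both untreated libraries. S100A11, a calcium-binding protein of the same broad family of EF-hand proteins as cornulin, had 393 and 425 CPM against 279.7 and 279. KRT17, a keratin of activated epithelium, had 175 and 179 CPM against 1747 and 112, so untreated replicate 1 stood above the other 3 libraries. KRT7 had 2.48 and 2.42 CPM against 11.6 and 4.96, below both untreated libraries. CDH1, the epithelial cadherin, had 78.9 and 72.2 CPM against 277 and 115, also below both. LOXL2, an enzyme that crosslinks collagen, had 21.7 and 19.3 CPM against 31.8 and 32.4. None of these genes passed the test over all genes (edgeR, adjusted p of 0.827 or above).

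**Figure D5:**
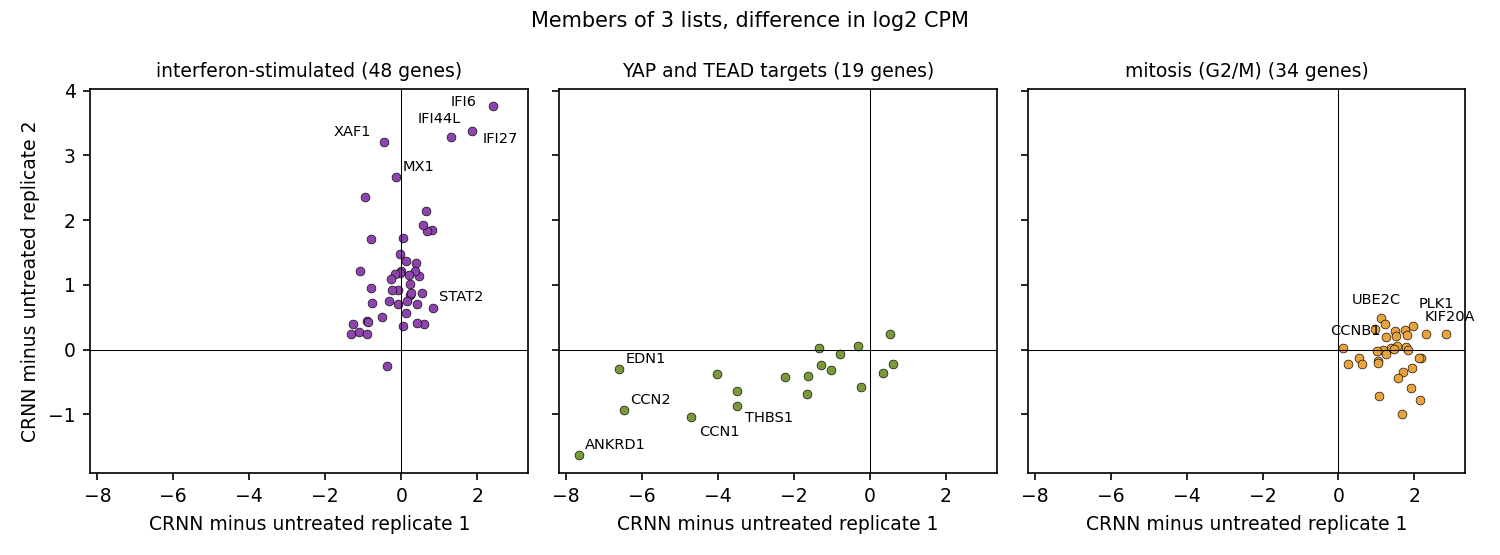
Each point is 1 tested member of the interferon-stimulated, YAP and TEAD target, or mitosis list, with the difference in log2 CPM of the CRNN mean from untreated replicate 1 on the horizontal axis and from untreated replicate 2 on the vertical axis. Interferon-stimulated genes spread upwards with IFI6, IFI27 and IFI44L in the upper right, YAP targets lie to the left and mostly below 0, and mitosis genes lie to the right near 0 on the vertical axis.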

How the data were processed

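Total RNA of Cal27 cells was made into stranded TruSeq libraries, per the labels. The deposited table holds counts, whole reads per gene for 57820 versioned Ensembl identifiers. Per the submitters' processing notes, the tools included STAR 2.6, HTSeq 0.6.1, FastQC 0.11.7, bcl2fastq and edgeR, and the builds hg19, GRCh37 and GRCh38 are all named. Which build, annotation or strand setting the counts rest on is not given in the sources used here. Names and coordinates came from GENCODE 44 (GRCh38) by identifier without version, and 51996 identifiers matched.

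The 4 CRNN and untreated libraries were fitted alone. Genes were kept by filterByExpr (minimum count 10, minimum total 15), which left 15687 genes with 99.8% of the counts, and 413 of these had no name. The test was edgeR 4.0.16 (R 4.3.3) with TMM factors and a two-sided quasi-likelihood F test with no covariate, with Benjamini-Hochberg adjustment over all tested genes and a call at an adjusted p under 0.05. The SE is the log2 fold change divided by the square root of F. Held genes and genes that differ from 1 untreated library were taken from log2 CPM with a prior count of 2, at 2-fold and 1.5-fold limits, with no test. Gene lists (774 genes, of which 762 were in the table) are described by counts and medians. The members, lists and rules were chosen with earlier results of these data known.

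The rule for named genes took CRNN, up to 14 held genes and up to 14 genes tied to untreated replicate 1 in each direction, up to 6 tied to untreated replicate 2, in order of their smallest difference among genes whose mean log2 CPM was at least 1, and up to 6 members of a list by smallest p. Genes without a name were passed over, except where stated, and 1 gene that the rule took is not reported here. The MMP cluster, the genes with opposite answers and the neighbours of PADI3 were named after their values were seen. Promoter letters were matched in RefSeq windows (GRCh38.p14) for 10841 tested genes, and matches of different motifs may overlap. No motif share was matched for the GC of the promoters. Alternatives were other scalings, filters, tools (DESeq2 1.42.0, limma-voom 3.58.1), fold limits and prior counts, a GC and length correction (natural splines, 4 degrees of freedom, over the 97.4% of tested genes with both values), removal of mitochondrial genes, all 6 libraries, a replicate block, and each library left out. The procedure was tested on simulated data, 5 runs with 200 changed genes each, drawn with the spread that edgeR estimated. There the edgeR test called 9.2% of 2-fold and 80% of 4-fold changes, with a mean of 20.2 false calls per run. The held rule took 15.6% of the 2-fold and 86.8% of the 4-fold changes. All changed genes had a mean log2 CPM of at least 1, so these shares do not cover the many held genes below it. Genes were drawn independently, so no simulated library stood apart over many genes as untreated replicate 1 did. How many unchanged genes the held rule took is not reported here. Library totals were 22990621 and 21735893 counts for the CRNN and 28041227 and 24300844 for the untreated replicates 1 and 2. Intervals are not given. Depth limits the genes at few counts, and many of the held genes are among them.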

Additional observations from a re-analysis of the deposited data

How the results depend on the processing

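The CRNN log2 fold change lay between 8.15 and 8.90 when any 1 library was left out, and it kept its call except with no filter (8.46, adjusted p = 0.339) and with the replicate block. The replicate numbers in the labels are shared by the groups, but nothing says that they pair libraries. Over 11709 genes the replicate differences of the CRNN and untreated pairs had r = -0.073, with 2 pairs. With the replicate block CRNN was at 8.51 (adjusted p = 0.072) and 0 genes were called, and with the block and the GC and length correction 1 gene was called (8.45). At an adjusted p under 0.01 the edgeR test called 0 genes. With no filter it called 0 higher, and DESeq2 called 11 higher and 5 lower. With 1 library left out edgeR called between 1 and 1878 genes higher and between 0 and 2304 lower, the larger numbers without an untreated library.

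The number of held genes moved with the limits. No filter gave 210 higher and 70 lower, a filter of 1 CPM in 2 libraries 38 and 12, 1.5-fold 288 and 122, 4-fold 2 and 1, and a prior count of 5 44 and 12. With either CRNN library left out, they ranged from 164 to 273 higher and from 92 to 286 lower. With 1 CRNN library fewer differences have to pass the limits, so part of such a rise is built into the rules. Requiring an edgeR call against each untreated library alone, an alternative chosen after seeing the data, gave 43 lower. Genes tied to untreated replicate 1 numbered 2076 higher and 1765 lower at 1.5-fold, 135 and 219 at 4-fold, 1266 lower with no filter, and with either CRNN library left out 1248 to 1437 higher. Genes tied to untreated replicate 2 numbered 354 higher and 226 lower with no filter, 70 and 2 with the 1 CPM filter, 387 and 137 at 1.5-fold, 12 and 1 at 4-fold, and 5 lower at a prior count of 5. With either CRNN library left out they ranged from 262 to 280 higher and from 102 to 250 lower.

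Over the alternatives, median log2 fold changes of the unfolded protein list moved from -0.23 to -0.14 with upper-quartile scaling, and with 1 library left out between -0.36 and -0.15. Those of proteases ranged from -0.16 to 0.32 and of zinc genes from 0.40 to 0.77 with 1 library left out. Medians of the NF-kB, immediate early, contractile, cholesterol and antigen presentation lists were above 0 without untreated replicate 1 (up to 0.47 for antigen presentation), against -1.02, -0.75, -1.26, -0.32 and -0.01 with all libraries. TAGLN changed sign with the replicate block (0.59), with the block and the correction (0.54) and with limma-voom (0.91), and CENPE with the block (0.33) and with the block and the correction (0.42). With 1 library left out, log2 fold changes ranged from -5.26 to 1.41 for CXCL8, -5.04 to 0.72 for TNFAIP3, -4.63 to 0.0697 for IFFO2, -4.59 to 0.0702 for HBEGF, -4.42 to 0.36 for PLAUR, -4.43 to 0.20 for JUN, -0.0322 to 4.75 for SLITRK6, -3.30 to 0.66 for KRT17, -2.74 to 4.68 for TAGLN, -6.22 to 3.95 for CREB5, -0.96 to 1.73 for CENPE, -0.76 to 2.18 for ASPM, -0.13 to 2.67 for MX1 and -0.44 to 3.25 for XAF1. ASPM changed sign also without CRNN replicate 1 and CENPE without CRNN replicate 2. The cause of the sign changes was not tested.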
